A study of Sus scrofa with 12 samples.

Results

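Dedifferentiated fat cells were compared with mature fat cells, over genes outside the well-known fat cell, actin and matrix genes. The comparison took the 3 arrays labelled DFAT and the 3 labelled MA, 6 of the 12 arrays of the series, and set the DFAT mean minus the MA mean for all 23999 probe sets that are not Affymetrix controls. MA are mature adipocytes isolated from the fat tissue of pigs. DFAT are cells that arose from mature adipocytes in ceiling culture, in which the buoyant fat cells attach to the top wall of a filled flask, and that had been grown until semiconfluent. No agent, genotype or age is given for either group. The titles call the arrays biological replicates, but no label names the animal or culture behind an array. The p-values therefore speak only of how far these arrays scatter, and some of that scatter may be technical. The other 6 arrays, 3 of granulosa cells from ovarian follicles (GC) and 3 of granulosa cells dedifferentiated in culture (DFOG), entered the fit to estimate the spread and gave the second dedifferentiation against which the leading genes were set. MA were isolated cells and DFAT were growing cells in culture, so dedifferentiation and culture cannot be told apart here.

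A mature fat cell holds one large lipid droplet and does not divide. It takes up glucose and fatty acids under insulin, breaks down branched-chain amino acids in its mitochondria to feed lipid synthesis, and answers to catecholamines, adenosine and prostaglandins through receptors that set the rate of lipolysis. In ceiling culture the cell loses its droplet, spreads, takes on the shape of a fibroblast and begins to divide. A growing cell of this kind needs amino acids, nucleotides, ribosomes and secretory capacity, and it reads growth factors of the TGF-beta, Notch, Wnt and IGF families.

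Levels are given on the log2 scale of the deposited values, where 1 unit is a 2-fold difference, and each level is that of 1 probe set. Levels of different genes are not compared, because probe sets differ in brightness. A gene is said to have risen or fallen when its limma p-value, adjusted over all 23999 probe sets, was under 0.05. In RNA from a mixed preparation, fewer cells of a type and less RNA per cell cannot be told apart. The isolated cells carried fat cell RNA as labelled, with FABP4, the fatty acid carrier of fat cells, at 14.12, 14.11 and 13.96 in MA 1 to 3 and at 8.81, 10.35 and 9.89 in DFAT 1 to 3.

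Macrophage and dendritic cell markers had a summed level of 11.3 to 11.6 in MA and of 10.9 to 11.1 in DFAT, and 13 of the 19 measured were lower in DFAT. Epithelial and mesothelial markers summed to 9.70 to 10.6 in MA and to 7.96 to 8.40 in DFAT, with 2 of 8 fallen and 6 that did not pass. Markers of adipose stromal and progenitor cells summed to 9.39 to 9.68 in MA and to 11.6 to 12.9 in DFAT, although 3 of the 6 rose and 2 fell. Pericyte and smooth muscle markers summed to 8.94 to 9.87 in MA and to 11.9 to 12.6 in DFAT, with 2 of 6 risen and 1 fallen. Schwann cell and nerve markers summed to 8.91 to 9.14 in MA and to 7.56 to 7.73 in DFAT, with 2 of 5 fallen. Skeletal muscle markers, of which 1 of 7 rose and 1 fell, lay at 7.43 to 7.47 in MA and at 8.04 to 10.6 in DFAT, and erythrocyte markers, of which 1 of 5 fell, at 8.86 to 9.19 and 8.47 to 8.78. These levels sum linear values, so a single bright gene can set them. Of the skeletal muscle list MYL1 alone lay at 10.45, 7.15 and 7.86 in DFAT 1 to 3, against sums of 10.58, 8.04 and 8.42. Of the stromal list THY1 alone lay at 10.81, 12.29 and 12.30, against sums of 11.57, 12.94 and 12.91. The part of these marker lists in the changes below was not tested. Lymphocyte markers, of which 2 of 11 fell, lay at 9.03 to 9.15 in MA and at 8.82 to 9.29 in DFAT, so the groups overlapped. MA 1 was the MA array least like the others. It differed at least 2-fold from MA 2 in 743 probe sets and from MA 3 in 1145. Between MA 2 and MA 3 the number was 282. Among the genes of MA 1, SAL1, a salivary lipocalin, lay at 13.56, 7.26 and 8.10 in MA 1 to 3, and the epithelial keratin KRT18 at 9.18, 5.72 and 6.28. EIF1AY, a gene that RefSeq places on the Y chromosome, lay at 3.24, 9.68 and 8.43 in MA 1 to 3 and 3.09, 8.20 and 3.06 in DFAT 1 to 3. The high values were those of MA 2, MA 3 and DFAT 2, so the same replicate number did not always carry the same level.

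The 3′ minus 5′ difference of one actin control, which grows when RNA is shorter, was 1.88 ± 0.52 in MA and 0.61 ± 0.33 in DFAT (SD, n = 3 each), and that of the second actin control was 0.42 ± 0.36 and 0.74 ± 0.53. That of the GAPDH control was 0.68 ± 0.27 in MA and 0.37 ± 0.23 in DFAT (SD, n = 3 each), and its arrays overlapped between the groups. The spiked poly-A controls averaged 8.29 ± 0.18 in MA and 7.66 ± 0.43 in DFAT (SD, n = 3 each). Centring the arrays on them adds 0.63 to every change, so results are given relative to the RNA on each array.

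A large part of the transcriptome differed between DFAT and MA, in both directions to a similar extent. Of the 23999 probe sets, 32.1% passed the test, 15.7% as higher and 16.4% as lower in DFAT. Among the 6765 genes with a name here the share was 41.2%, with 1404 genes (20.8%) risen and 1380 (20.4%) fallen, and the MA and DFAT values did not overlap in 53.1%. The counts of gene lists below are read against these shares where they come from the values as deposited. Under poly-A centring 6884 of the 23999 probe sets rose and 1340 fell, so that 83.7% of those called were higher in DFAT, against 48.9% as deposited. With the first actin control's difference as a covariate (called the actin covariate from here on) 2296 probe sets rose and 2896 fell. List counts under poly-A centring or the actin covariate have these counts as their background. Shares over named genes were not computed for them. At least 16-fold changes were reached by 214 probe sets that rose and 168 that fell, and 110 and 60 of these had no gene symbol here.

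**Figure D1:**
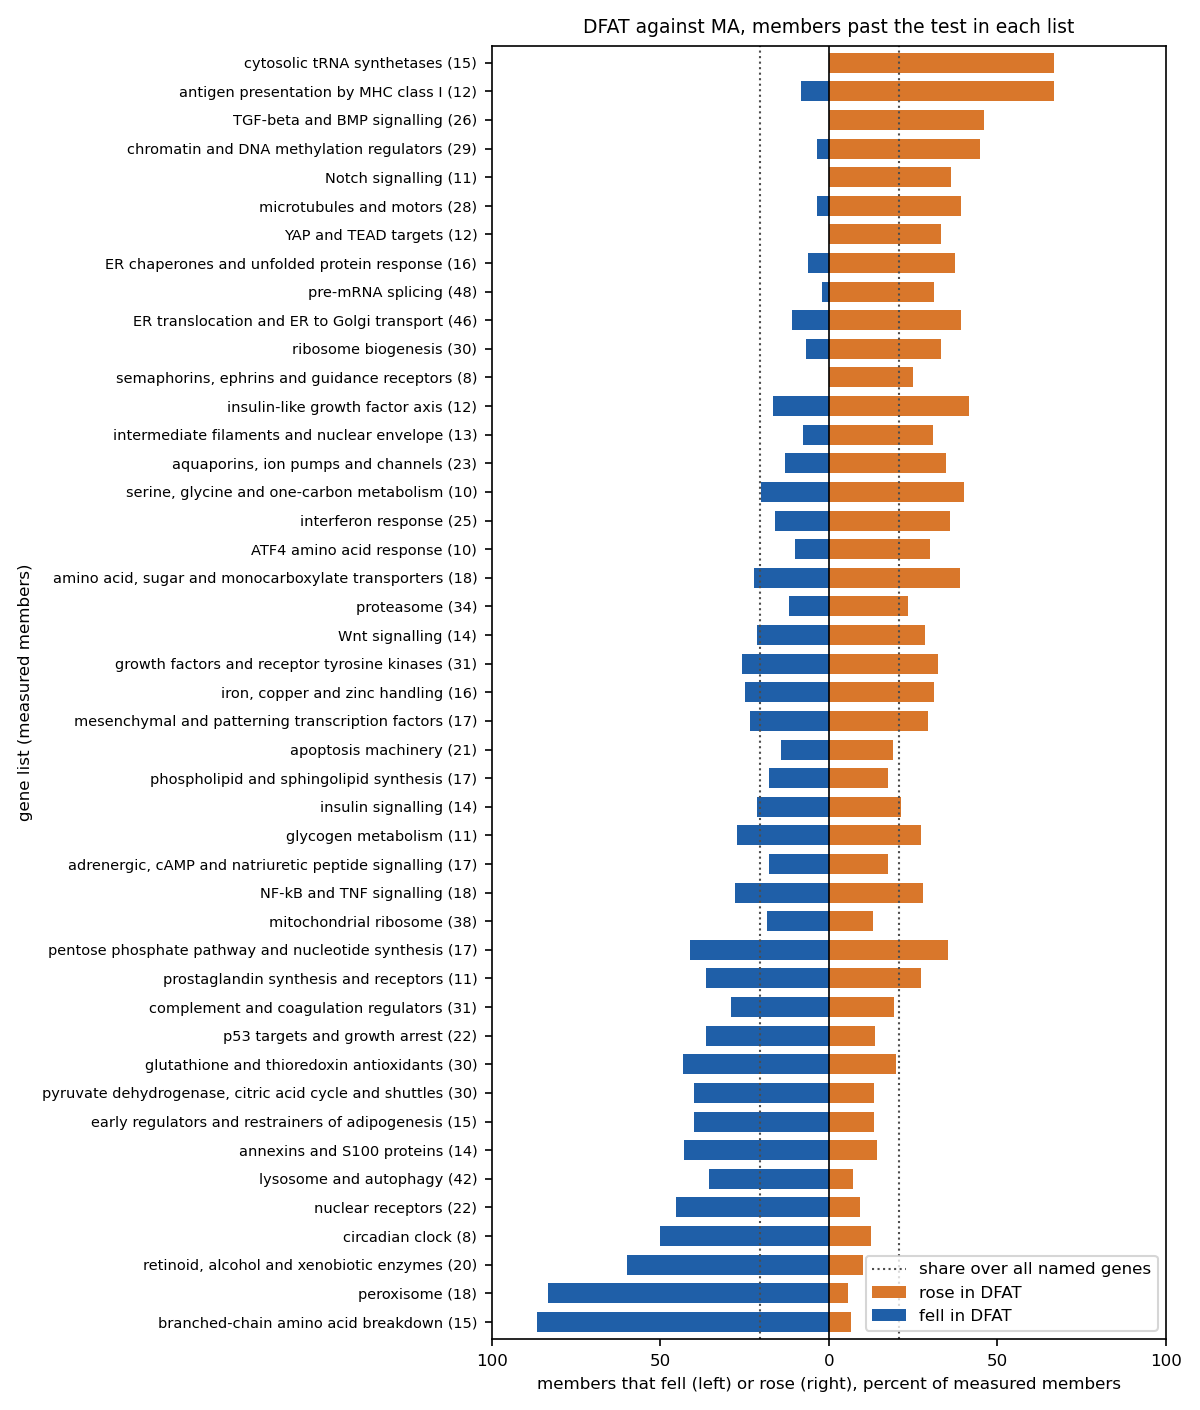
Share of the measured members of each gene list that rose (orange, to the right) or fell (blue, to the left) in DFAT against MA, in percent, with the number measured in brackets and dotted lines at 20.8% and 20.4%, the shares over all named genes. Breakdown of branched-chain amino acids, peroxisome and xenobiotic enzymes lie at the falling end, and cytosolic tRNA synthetases and MHC class I presentation at the rising end.

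The largest falls outside the classic lists were those of CA3, PON3 and CDO1. CA3, a cytosolic carbonic anhydrase, lay at 12.64, 12.79 and 12.94 in MA 1 to 3 and 3.85, 4.32 and 4.18 in DFAT 1 to 3. PON3, a lactonase, lay at 12.82, 11.83 and 11.28 in MA 1 to 3 and 3.26, 3.09 and 3.72 in DFAT 1 to 3. CDO1, which oxidises cysteine on the way to taurine, lay at 11.91, 12.03 and 12.20 in MA 1 to 3 and 4.19, 4.56 and 4.47 in DFAT 1 to 3. In all of these the groups were separated by more than 6 log2 units, and the DFAT arrays lay close together near the low end of the scale.

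SLC22A3, a transporter of organic cations such as catecholamines, lay at 9.48, 9.60 and 9.67 in MA 1 to 3 and 3.60, 3.38 and 3.34 in DFAT 1 to 3, a change of -6.14 ± 0.15 (SE, limma adjusted p = 1.60e-09). PLA2G7, which inactivates platelet-activating factor, changed by -5.72 ± 0.28 (SE, limma adjusted p = 8.28e-08). OXCT1, the enzyme that lets mitochondria burn ketone bodies, lay at 12.53, 12.97 and 13.12 in MA 1 to 3 and 6.53, 7.77 and 7.57 in DFAT 1 to 3. DFAT 1 was lowest and the groups stayed more than 4 units apart.

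Both fructose-1,6-bisphosphatases, which reverse a committed step of glycolysis, were among the 15 largest falls, FBP1 with -5.44 and FBP2 with -5.41. AGT, the angiotensinogen that fat tissue secretes, went from 13.64 ± 0.25 to 8.27 ± 0.40 (SD, n = 3 each). GPX3, the glutathione peroxidase of blood plasma, lay at 13.02, 13.27 and 12.998 in MA 1 to 3 and 6.68, 8.14 and 8.45 in DFAT 1 to 3, with DFAT 1 below the other DFAT arrays. The remaining ones were SGK2, a kinase related to AKT (-7.32), the lysophospholipase ENPP2 (-6.76), the tetraspanin TSPAN13 (-6.62), the hyaluronan-binding ITIH5 (-6.55) and the phosphodiesterase subunit PDE6C (-6.37).

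All 15 of these falls were larger than the change of the same gene in granulosa cells, by limma's test of the difference between the 2 changes. Of all named genes 29.2% passed that test. These 15 were picked for a large fat cell change, which is part of the difference, so the choice favoured a pass. Genes that granulosa cells held near the low end before and after included SLC22A3, with a granulosa change of 0.03 and a difference of -6.17 ± 0.22 (SE, limma adjusted p = 5.48e-08), and AGT, with 0.16 and -5.53 ± 0.32 (SE, limma adjusted p = 9.10e-07). CDO1, PLA2G7 and TSPAN13 had lower means in DFOG than in GC as well, by -4.55, -3.14 and -2.35, and their falls in fat cells exceeded these by -3.08, -2.58 and -4.27. DFOG enters this comparison with 2 samples, since 2 of its arrays were nearly identical and were averaged.

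**Figure D2:**
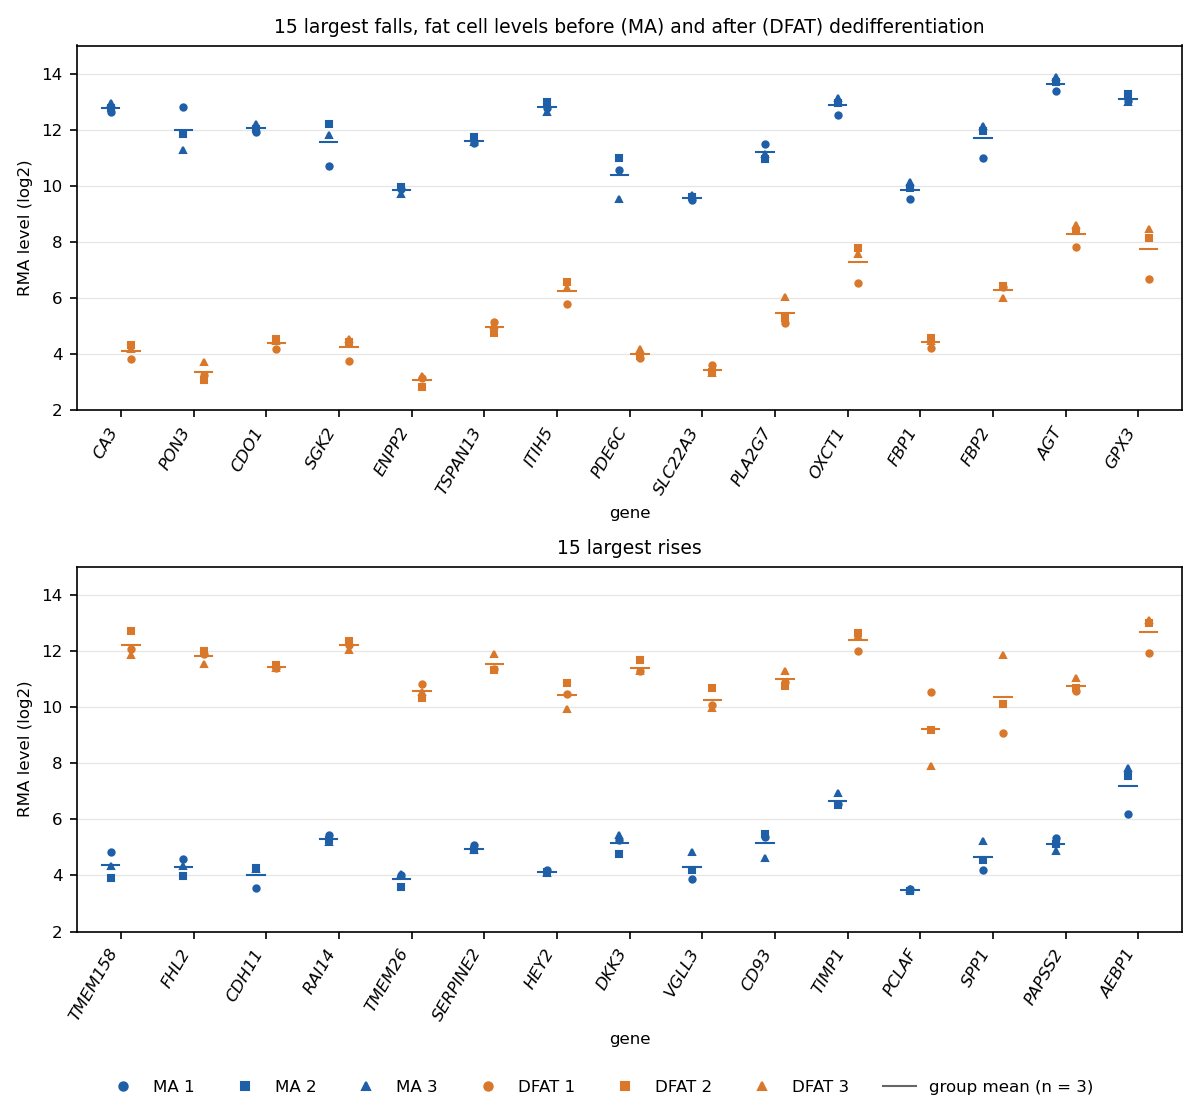
RMA level on the log2 scale (y axis) of the 15 largest falls and the 15 largest rises (x axis, 1 gene per place) in MA 1 to 3 (blue) and DFAT 1 to 3 (orange), with the group means as lines. In all 30 genes the MA and DFAT arrays are separate, which the choice of these genes required, and SPP1 and PCLAF have the widest DFAT spread, 9.09, 10.11 and 11.84 and 10.54, 9.16 and 7.90.

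The largest rises were those of the membrane protein TMEM158 (7.86), FHL2, a LIM domain cofactor (7.50), CDH11, a cadherin of mesenchymal cells (7.41), the actin-associated RAI14 (6.90) and the membrane protein TMEM26 (6.68). SERPINE2, a secreted inhibitor of thrombin and urokinase, lay at 5.07, 4.91 and 4.89 in MA 1 to 3 and 11.37, 11.32 and 11.90 in DFAT 1 to 3, a rise of 6.57 ± 0.26 (SE, limma adjusted p = 1.84e-08). DKK3, a secreted member of the Dickkopf family of Wnt modulators, lay at 5.27, 4.77 and 5.43 in MA 1 to 3 and 11.27, 11.66 and 11.27 in DFAT 1 to 3. HEY2, a repressor that Notch switches on, lay at 4.20, 4.13 and 4.08 in MA 1 to 3 and 10.46, 10.85 and 9.94 in DFAT 1 to 3. In each of these the 3 DFAT arrays lay within 1 unit of each other.

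VGLL3, a cofactor of TEAD transcription factors, rose by 5.94 ± 0.29 (SE, limma adjusted p = 8.83e-08). PAPSS2, which makes the sulfate donor for proteoglycans, rose by 5.66 ± 0.28 (SE, limma adjusted p = 8.28e-08). CD93, a lectin-like receptor best known from endothelial and myeloid cells, lay at 5.39, 5.47 and 4.63 in MA 1 to 3 and 10.90, 10.76 and 11.30 in DFAT 1 to 3. Of 13 endothelial markers 2 rose and 4 fell, while the groups overlapped in summed level, at 10.06 to 10.66 in MA and 10.01 to 10.44 in DFAT. The part of endothelial cells in the rise of CD93 was not tested. AEBP1, a collagen-binding secreted protein, lay at 6.20, 7.55 and 7.82 in MA 1 to 3 and 11.92, 12.98 and 13.12 in DFAT 1 to 3, and MA 1 was the lowest of its group. PCLAF, a PCNA-binding protein of dividing cells, lay at 3.50, 3.45 and 3.53 in MA 1 to 3 and 10.54, 9.16 and 7.90 in DFAT 1 to 3, and SPP1, osteopontin, at 4.19, 4.53 and 5.21 in MA 1 to 3 and 9.09, 10.11 and 11.84 in DFAT 1 to 3. The DFAT arrays were ordered oppositely in these, with DFAT 1 highest for PCLAF and DFAT 3 for SPP1. TIMP1, an inhibitor of matrix metalloproteinases, rose by 5.73. Over the mean of a gene's probe sets the rises of CDH11, HEY2, CD93 and PCLAF were smaller, at 4.88, 3.93, 2.82 and 3.20.

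Of the 15 rises, 10 differed from the granulosa change, and here too the choice of genes favoured a pass. SERPINE2 had a granulosa change of -2.46, so that the difference was 9.03 ± 0.38 (SE, limma adjusted p = 1.53e-07), and the granulosa changes of HEY2 (-0.54) and PCLAF (-0.69) were also not rises, with differences of 6.81 ± 0.37 (SE, limma adjusted p = 6.31e-07) and 6.40 ± 0.73 (SE, limma adjusted p = 9.91e-05). FHL2, CDH11, VGLL3, SPP1 and AEBP1 had changes of 8.40, 6.65, 4.75, 5.47 and 4.77 in granulosa cells, and for them the difference did not pass. It was -0.90 ± 0.32 (SE, limma adjusted p = 0.0647) for FHL2 and 0.24 ± 0.81 (SE, limma adjusted p = 0.884) for SPP1.

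Most measured genes for the mitochondrial breakdown of leucine, isoleucine and valine fell. Of the 22 genes on this list 15 were measured. Of these 13 fell and 1 rose, with a median change of -1.94, against -0.02 over all named genes. MCCC2, a subunit of the carboxylase in leucine breakdown, lay at 11.14, 11.29 and 11.47 in MA 1 to 3 and 6.29, 7.96 and 7.77 in DFAT 1 to 3, a change of -3.96 ± 0.35 (SE, limma adjusted p = 7.16e-06). The groups were more than 3 units apart, and DFAT 1 was the lowest array. BCKDHB, the subunit that carries part of the active site of the branched-chain keto acid dehydrogenase, lay at 10.62, 11.07 and 11.07 in MA 1 to 3 and 7.19, 8.02 and 7.32 in DFAT 1 to 3. Its partner subunits BCKDHA and DBT changed by -1.97 and -1.94, the transaminase BCAT2 of the first step by -1.18, and the later enzymes AUH, ACADSB, PCCA and IVD by -2.79, -2.76, -2.35 and -2.12. BCKDK, the kinase that switches the dehydrogenase off, was the member that rose, by 0.84 ± 0.19 (SE, limma adjusted p = 0.0054). That rise was 0.74 (limma adjusted p = 0.13) with the actin covariate. In the list 0 rose and 13 fell with the actin covariate, and 1 rose and 10 fell with poly-A centring.

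The citric acid cycle and the enzymes around it were mixed. Of 30 genes 12 fell and 4 rose, with a median of -0.39, or 0.24 with poly-A centring; 3 rose and 10 fell with the actin covariate and 5 rose and 4 fell with poly-A centring. PDHA1, the catalytic subunit of pyruvate dehydrogenase, went from 11.52 ± 0.04 to 9.63 ± 0.64 (SD, n = 3 each), ME1, the cytosolic malic enzyme that supplies NADPH for fat synthesis, changed by -2.09, and citrate synthase CS by -1.28. Against them IDH2, the mitochondrial NADP-linked isocitrate dehydrogenase, lay at 8.85, 8.40 and 8.59 in MA 1 to 3 and 10.85, 11.25 and 11.10 in DFAT 1 to 3, and PCK2, the mitochondrial phosphoenolpyruvate carboxykinase, at 5.36, 5.34 and 5.65 in MA 1 to 3 and 7.75, 7.99 and 8.62 in DFAT 1 to 3. The rises were 2.46 ± 0.21 (SE, limma adjusted p = 5.74e-06) and 2.67 ± 0.28 (SE, limma adjusted p = 2.23e-05), and in both genes every DFAT array lay above every MA array. Cytosolic PCK1 did not pass (-1.30 ± 0.75 (SE, limma adjusted p = 0.225)), with DFAT 1 at 6.38 and the other DFAT arrays at 10.08 and 9.61. No direction is given for ACO1, whose probe sets went in opposite directions. List counts take each gene by its probe set with the highest mean level, also in such a case. Proteins of the mitochondrial ribosome had 7 of 38 members fall and 5 rise, shares below those of all named genes (median 0.07). The largest fall was that of MRPS9 (-2.12). Of them 1 rose and 6 fell with the actin covariate, and 16 rose and 1 fell with poly-A centring. Of these genes 1 rose without DFAT 1, 2 rose without MA 1 or MA 2, 3 rose without MA 3, 8 rose without DFAT 2 and 4 fell without MA 3, DFAT 2 or DFAT 3. The change of PCK2 was 1.49 over the mean of the gene's probe sets.

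**Figure D3:**
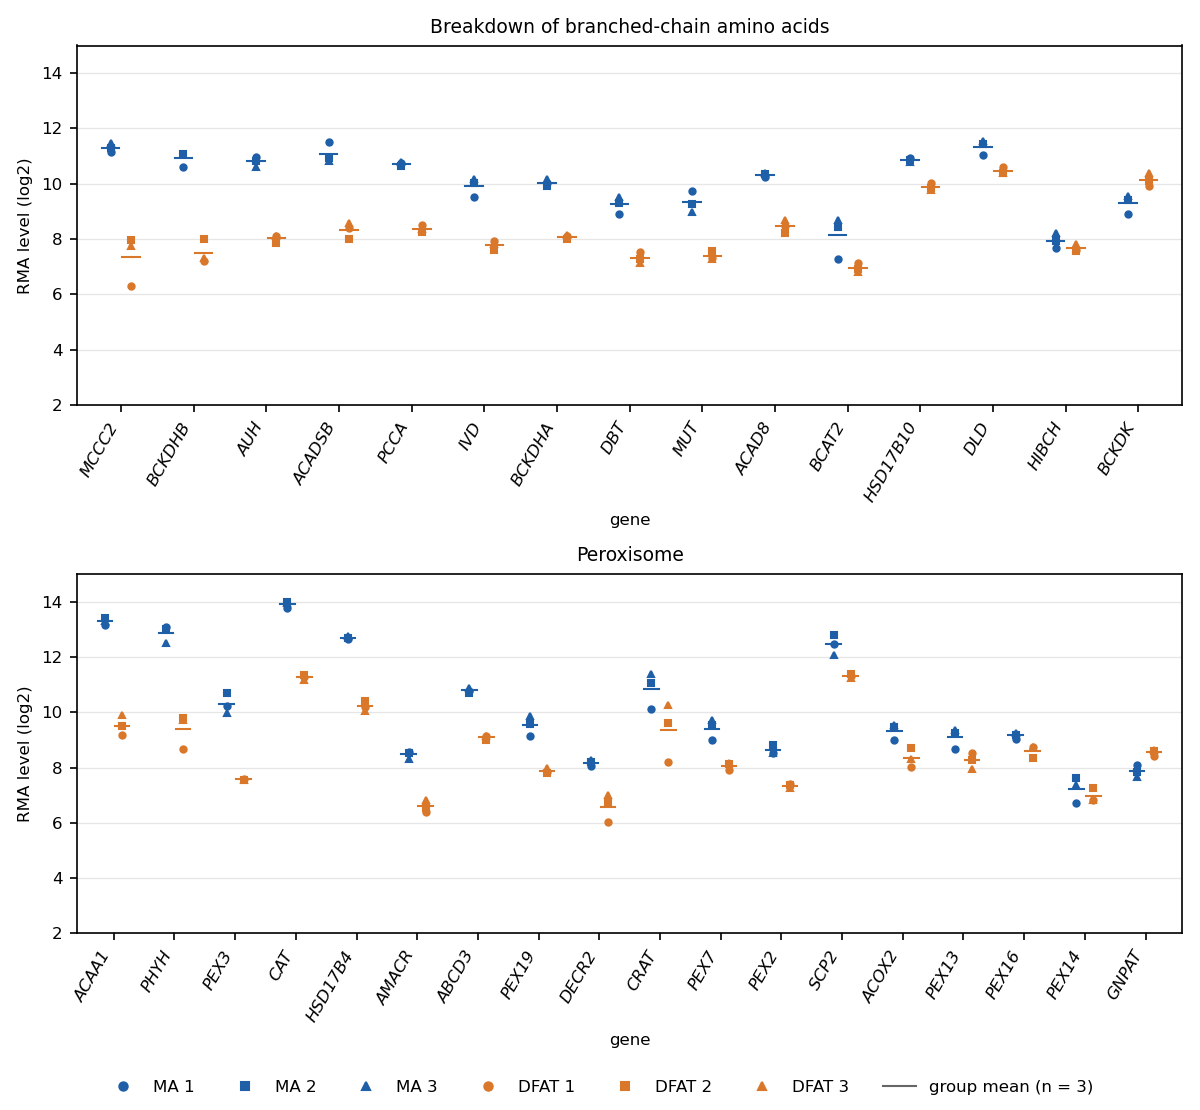
RMA level on the log2 scale (y axis) of the measured genes (x axis) of branched-chain amino acid breakdown and of the peroxisome, ordered by change, in MA 1 to 3 (blue) and DFAT 1 to 3 (orange), with group means as lines. The falling members make up nearly all of both panels, and BCKDK and GNPAT at the right ends rose.

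Most peroxisome genes fell. Of 18 measured, 15 fell and 1 rose, with a median of -1.53; 1 rose and 14 fell with the actin covariate and 1 rose and 8 fell with poly-A centring. ACAA1, the thiolase of peroxisomal beta-oxidation, lay at 13.15, 13.41 and 13.31 in MA 1 to 3 and 9.17, 9.50 and 9.89 in DFAT 1 to 3, and PHYH, which starts the breakdown of phytanic acid, at 13.09, 13.01 and 12.51 in MA 1 to 3 and 8.66, 9.80 and 9.70 in DFAT 1 to 3. In both genes every DFAT array lay more than 2 units below every MA array, and the changes were -3.77 ± 0.22 (SE, limma adjusted p = 3.34e-07) and -3.48 ± 0.29 (SE, limma adjusted p = 4.42e-06). Catalase CAT changed by -2.64 and the bifunctional enzyme HSD17B4 by -2.48. Genes that build the organelle were among them too, with PEX3 at -2.73, PEX19 at -1.66, PEX7 at -1.34 and PEX13 at -0.84, while PEX14 (-0.27) and PEX16 (-0.54) did not pass. GNPAT, which starts ether lipid synthesis in the peroxisome, rose by 0.69 ± 0.15 (SE, limma adjusted p = 0.00503).

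Enzymes of retinoid, alcohol and xenobiotic handling had 12 of 20 members fall and 2 rise (median -1.21); 1 rose and 12 fell with the actin covariate and 2 rose and 10 fell with poly-A centring. FMO1, a flavin monooxygenase, lay at 9.48, 8.59 and 8.64 in MA 1 to 3 and 3.67, 3.72 and 3.80 in DFAT 1 to 3. CES1, a carboxylesterase that also acts on stored lipid, changed by -4.91 ± 0.32 (SE, limma adjusted p = 6.85e-07). ALDH1A1, which makes retinoic acid from retinal, lay at 12.49, 12.40 and 12.44 in MA 1 to 3 and 8.76, 6.70 and 10.28 in DFAT 1 to 3. Every MA array lay above every DFAT array in these, and the fall of ALDH1A1 was -2.59 (limma adjusted p = 0.0811) with the actin covariate. The epoxide hydrolases EPHX2 and EPHX1 changed by -3.01 and -1.62, and the microsomal glutathione transferase MGST1 by -3.35. CRABP2, which carries retinoic acid to its nuclear receptor, went the other way and lay at 5.74, 5.56 and 5.36 in MA 1 to 3 and 9.52, 9.74 and 10.21 in DFAT 1 to 3, a rise of 4.27 ± 0.27 (SE, limma adjusted p = 6.66e-07).

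Lysosome and autophagy genes had 15 of 42 members fall and 3 rise, with a median of -0.25 that turned to 0.38 with poly-A centring; 2 rose and 12 fell with the actin covariate and 8 rose and 5 fell with poly-A centring. LIPA, the acid lipase of the lysosome, lay at 12.52, 12.44 and 12.33 in MA 1 to 3 and 7.97, 8.27 and 7.76 in DFAT 1 to 3 and the groups were more than 4 units apart. IDS, a sulfatase, and NPC1, which exports cholesterol from lysosomes, changed by -2.65 and -2.33, and the regulator MITF by -2.22. GUSB, beta-glucuronidase, rose by 3.18 ± 0.24 (SE, limma adjusted p = 2.34e-06), and the cathepsins CTSB (0.24) and CTSK (-0.28) did not pass. Of these genes 7 rose without DFAT 1. In phospholipid and sphingolipid synthesis 3 of 17 fell and 3 rose, close to the shares over all genes; 1 rose and 3 fell with the actin covariate and 5 rose and 3 fell with poly-A centring. CHPT1, which makes phosphatidylcholine, and CDS2, which makes the precursor of phosphatidylinositol, changed by -3.43 and -3.42, and PTDSS1, a phosphatidylserine synthase, by 1.45. The change of GUSB was 1.96 over the mean of the gene's probe sets.

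Most genes that load amino acids onto tRNA in the cytosol rose. Of 15 cytosolic tRNA synthetases 10 rose and none fell, with 0 lower at an unadjusted limma p under 0.05. The median was 0.95; 9 rose and 0 fell with the actin covariate and 12 rose and 0 fell with poly-A centring. GARS, for glycine, lay at 9.47, 9.41 and 9.62 in MA 1 to 3 and 12.89, 12.85 and 13.01 in DFAT 1 to 3, a rise of 3.42 ± 0.16 (SE, limma adjusted p = 6.80e-08). The groups were separated and DFAT 1 to 3 lay within 1 unit of each other. WARS, for tryptophan and also inducible by interferon gamma, rose by 2.65 ± 0.20 (SE, limma adjusted p = 2.35e-06), AARS by 2.37 ± 0.14 (SE, limma adjusted p = 3.63e-07) and MARS by 1.87. LARS (-0.08), KARS (-0.10) and DARS (-0.17) did not pass. The change of AARS was 1.49 over the mean of the gene's probe sets.

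In serine, glycine and one-carbon metabolism 2 mitochondrial folate enzymes rose and 2 cytosolic ones fell. MTHFD2, the mitochondrial folate dehydrogenase of growing cells, lay at 6.21, 6.36 and 6.70 in MA 1 to 3 and 11.11, 9.88 and 10.44 in DFAT 1 to 3, and MTHFD1L, the mitochondrial formate-releasing enzyme, at 6.08, 7.17 and 6.9996 in MA 1 to 3 and 9.87, 9.08 and 9.46 in DFAT 1 to 3. ALDH1L1, which removes one-carbon units in the cytosol, lay at 10.25, 11.46 and 11.61 in MA 1 to 3 and 5.32, 6.85 and 6.78 in DFAT 1 to 3, and SHMT1, the cytosolic serine hydroxymethyltransferase, at 10.12, 9.64 and 9.82 in MA 1 to 3 and 6.51, 6.67 and 7.06 in DFAT 1 to 3. In all of these the MA and DFAT arrays were apart, and the changes were 4.06 ± 0.27 (SE, limma adjusted p = 8.30e-07), 2.72 ± 0.31 (SE, limma adjusted p = 4.98e-05), -4.79 ± 0.44 (SE, limma adjusted p = 8.38e-06) and -3.12 ± 0.35 (SE, limma adjusted p = 3.97e-05). PHGDH, the first enzyme of serine synthesis, rose by 2.25 ± 0.25 (SE, limma adjusted p = 4.00e-05) and PSPH, the last, by 0.52, whereas PSAT1 between them did not pass (-0.37). In this list 4 of 10 members rose and 2 fell; 3 rose and 3 fell with the actin covariate and 5 rose and 2 fell with poly-A centring. The change of ALDH1L1 was -2.40 over the mean of the gene's probe sets, and that of SHMT1 was -2.03 with the actin covariate.

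ASNS, asparagine synthetase, rose by 2.34 ± 0.21 (SE, limma adjusted p = 6.67e-06), and CTH, which makes cysteine from cystathionine, by 1.83 ± 0.43 (SE, limma adjusted p = 0.00628). Both belong to the ATF4 response to amino acid shortage, in which 3 of 10 members rose and 1 fell; 2 rose and 1 fell with the actin covariate and 5 rose and 1 fell with poly-A centring. ATF4 itself (-0.47) and DDIT3 (0.28) did not pass, and ATF3 fell (-1.80). VLDLR, the other member that rose (0.68), was 0.24 (limma adjusted p = 0.651) with the actin covariate. It also did not pass without MA 1, MA 2, MA 3 or DFAT 2 (0.53 to 0.71). Over the mean of the gene's probe sets it was 0.42 (limma adjusted p = 0.299).

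Transporters had 7 of 18 members rise and 4 fall; 6 rose and 4 fell with the actin covariate and 9 rose and 3 fell with poly-A centring. SLC16A3, which exports lactate, lay at 4.78, 4.59 and 5.07 in MA 1 to 3 and 7.32, 10.15 and 9.33 in DFAT 1 to 3. SLC7A1, for arginine and lysine, lay at 6.64, 6.72 and 7.17 in MA 1 to 3 and 10.97, 10.52 and 10.61 in DFAT 1 to 3, and SLC38A1, for glutamine, rose by 2.93 ± 0.24 (SE, limma adjusted p = 3.75e-06). SLC1A3, a glutamate carrier, fell by 2.13 on the log2 scale, and SLC2A12, a glucose transporter, by 2.07. SLC2A5, the fructose transporter, spanned 7.39, 10.45 and 9.71 in MA and 7.16, 11.76 and 11.04 in DFAT and did not pass.

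**Figure D4:**
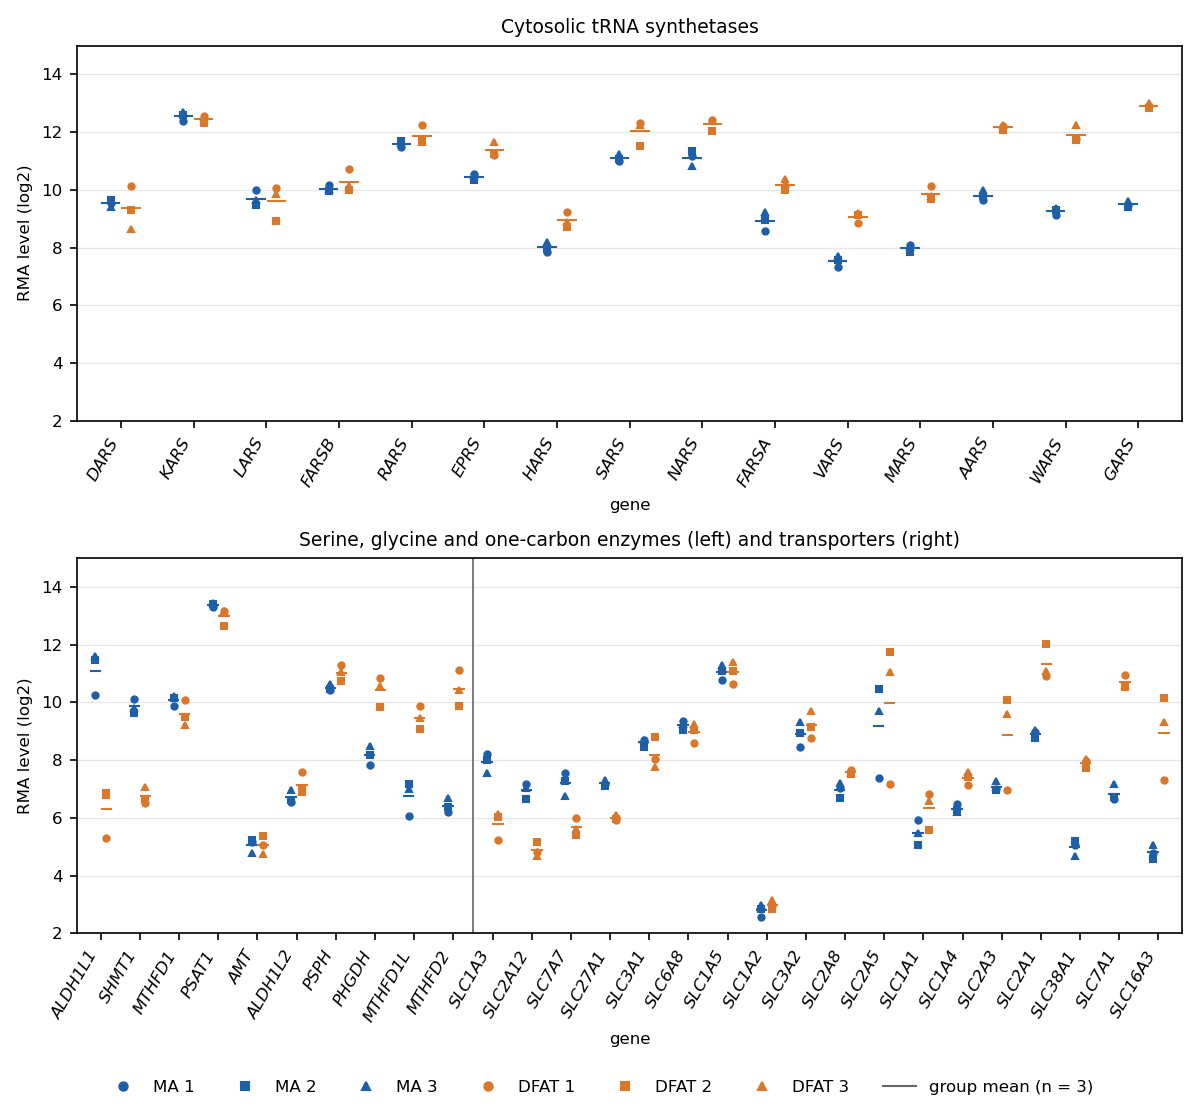
RMA level on the log2 scale (y axis) of cytosolic tRNA synthetases (upper panel) and of serine, glycine and one-carbon enzymes and transporters (lower panel, left and right of the line), 1 gene per place on the x axis, in MA 1 to 3 (blue) and DFAT 1 to 3 (orange), with group means as lines. Of the synthetases 10 of 15 rose, and in the lower panel ALDH1L1 and SHMT1 fell while MTHFD1L and MTHFD2 rose.

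Nucleotide supply was split gene by gene. In the pentose phosphate pathway and nucleotide synthesis 6 of 17 members rose and 7 fell (median -0.07); 2 rose and 6 fell with the actin covariate and 7 rose and 4 fell with poly-A centring. CTPS1, which makes CTP, lay at 5.16, 5.27 and 5.80 in MA 1 to 3 and 8.59, 8.95 and 8.27 in DFAT 1 to 3, a rise of 3.19 ± 0.22 (SE, limma adjusted p = 1.07e-06). GART and PRPS1, both of purine synthesis, rose by 1.47 and 1.29, while PPAT, the first committed enzyme of the same route, changed by -2.09 ± 0.21 (SE, limma adjusted p = 1.56e-05) and PAICS by -1.97 ± 0.24 (SE, limma adjusted p = 7.26e-05). RPIA and TKT, of the non-oxidative pentose phosphate branch, changed by -2.14 and -1.88. Neighbouring steps of the purine route thus carried opposite signs, with the MA and DFAT arrays apart in each of the genes with a standard error here.

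In glycogen metabolism 3 of 11 rose and 3 fell, so that 54.5% passed in either direction, against 41.2% over all named genes. With the actin covariate 1 rose and 1 fell, and with poly-A centring 4 rose and 1 fell. With the MA and DFAT arrays alone 1 of the list fell. GYG1, the protein primer of glycogen, rose by 1.40 ± 0.18 (SE, limma adjusted p = 0.00011), and STBD1, which binds glycogen to membranes, changed by -2.34 ± 0.29 (SE, limma adjusted p = 8.61e-05). The small rises of PHKG2 (0.64) and PPP1R3B (0.67) no longer passed with the actin covariate, at 0.65 (limma adjusted p = 0.128) and 0.60 (limma adjusted p = 0.249). PPP1R3B also did not pass without MA 1, without MA 2, without DFAT 2 or without DFAT 3, with values between 0.49 and 0.69, nor PHKG2 without MA 2 (0.52), so that 1 member of the list then rose.

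Among antioxidant enzymes more fell than rose on the deposited scale, and the order turned with poly-A centring. Of 30 members 13 fell and 6 rose, with a median of -0.51, or 0.12 with poly-A centring; 4 rose and 11 fell with the actin covariate and 12 rose and 4 fell with poly-A centring. Beside GPX3, SOD2, the superoxide dismutase of mitochondria, lay at 13.03, 13.09 and 13.24 in MA 1 to 3 and 9.52, 11.34 and 11.26 in DFAT 1 to 3, and GSTK1, a glutathione transferase of mitochondria and peroxisomes, changed by -2.12 ± 0.19 (SE, limma adjusted p = 8.02e-06). PRDX3, the peroxiredoxin of mitochondria, changed by -1.37. HMOX1, the haem oxygenase, lay at 8.08, 8.35 and 8.55 in MA 1 to 3 and 11.42, 10.96 and 11.38 in DFAT 1 to 3, a rise of 2.93 ± 0.19 (SE, limma adjusted p = 6.33e-07). PRDX4, the peroxiredoxin of the endoplasmic reticulum, rose by 2.04, cytosolic PRDX1 by 1.95 and glutathione synthetase GSS by 1.31.

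Metal handling had 5 of 16 members rise and 4 fall, so that 56.2% passed in either direction, against 41.2% over all named genes. With the actin covariate 2 rose and 1 fell, and with poly-A centring 7 rose and 1 fell. MT1A, a metallothionein that binds zinc and copper, changed by -2.62 ± 0.29 (SE, limma adjusted p = 3.86e-05). TFRC, the transferrin receptor through which dividing cells take up iron, rose by 2.14 ± 0.49 (SE, limma adjusted p = 0.00581), and by 0.88 (limma adjusted p = 0.4) with the actin covariate. The ferritin chains FTH1 (-0.23) and FTL (-0.29) did not pass.

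ADORA1, PTGER3 and GHR, receptors taken from 3 separate gene lists, fell in DFAT. ADORA1, the adenosine receptor that restrains lipolysis, lay at 9.47, 9.67 and 9.94 in MA 1 to 3 and 5.02, 5.58 and 5.97 in DFAT 1 to 3, a change of -4.17 ± 0.22 (SE, limma adjusted p = 1.59e-07). PTGER3, a prostaglandin E2 receptor that likewise lowers cAMP, lay at 9.39, 9.49 and 9.60 in MA 1 to 3 and 4.31, 4.69 and 4.54 in DFAT 1 to 3, a change of -4.98 ± 0.16 (SE, limma adjusted p = 4.65e-09). GHR, the growth hormone receptor, lay at 10.92, 10.72 and 10.62 in MA 1 to 3 and 5.88, 7.12 and 6.82 in DFAT 1 to 3. All 3 were separated between the groups without overlap. GNAI1 and GNAI2 encode alpha subunits of inhibitory G proteins, and they went opposite ways, GNAI1 by -1.39 ± 0.21 (SE, limma adjusted p = 0.000418) and GNAI2 by 1.55 ± 0.23 (SE, limma adjusted p = 0.000314), the former at -0.76 (limma adjusted p = 0.0752) with poly-A centring. The beta-adrenergic receptors ADRB1 (-0.20) and ADRB3 (0.32) did not pass. In the whole list of adrenergic, cAMP and natriuretic peptide signalling 3 of 17 members rose and 3 fell, close to the shares over all named genes. With the actin covariate 2 rose and 3 fell, and with poly-A centring 7 rose and 2 fell. Without DFAT 2, 1 of the members rose. The change of GNAI1 was -0.71 over the mean of the gene's probe sets.

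Prostaglandin genes had 4 of 11 members fall and 3 rise; 1 rose and 4 fell with the actin covariate and 5 rose and 4 fell with poly-A centring. PTGES, which makes prostaglandin E2, rose by 3.39 ± 0.43 (SE, limma adjusted p = 0.000101), and the cyclooxygenases PTGS2 and PTGS1 by 1.62 and 1.41. PTGR1, which inactivates prostaglandins, and PLA2G16, the main phospholipase of fat tissue, changed by -4.02 and -3.21.

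In insulin signalling 3 of 14 members rose and 3 fell, close to the shares over all named genes. With the actin covariate 1 rose and 2 fell, and with poly-A centring 3 rose and 1 fell. AKT2, the AKT kinase best known for insulin-driven glucose uptake, lay at 12.02, 11.97 and 12.15 in MA 1 to 3 and 9.47, 9.90 and 10.07 in DFAT 1 to 3, a change of -2.23 ± 0.18 (SE, limma adjusted p = 4.03e-06), while AKT1 (0.13), the receptor INSR (0.04), IRS1 (0.05) and the transporter SLC2A4 (-0.35) did not pass. PTPN1, a phosphatase that quiets the receptor, rose by 1.21 ± 0.20 (SE, limma adjusted p = 0.000793). SHC1 (1.27) and RHOQ (-0.995) were 0.10 (limma adjusted p = 0.91) and -0.39 (limma adjusted p = 0.672) with the actin covariate. SHC1 lost its call without MA 1, MA 2, DFAT 2 or DFAT 3, at 1.05 to 1.31, and RHOQ without any single array but DFAT 3, at -1.01 to -0.60. Of these genes 1 rose without MA 2, DFAT 2 or DFAT 3 and 1 fell without MA 1 or DFAT 1. The change of PTPN1 was 0.42 over the mean of the gene's probe sets.

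Nuclear receptors had 10 of 22 members fall and 2 rise, with a median of -0.44, or 0.20 with poly-A centring; 0 rose and 8 fell with the actin covariate and 6 rose and 3 fell with poly-A centring. RXRG, a retinoid X receptor, lay at 9.39, 8.88 and 8.75 in MA 1 to 3 and 5.91, 5.85 and 5.52 in DFAT 1 to 3. THRB, a thyroid hormone receptor, lay at 8.51, 8.03 and 6.84 in MA 1 to 3 and 4.68, 4.79 and 4.48 in DFAT 1 to 3, and PGR, the progesterone receptor, at 7.16, 6.65 and 5.85 in MA 1 to 3 and 3.41, 3.54 and 3.35 in DFAT 1 to 3. These falls were -3.25 ± 0.19 (SE, limma adjusted p = 3.39e-07), -3.14 ± 0.35 (SE, limma adjusted p = 3.60e-05) and -3.12 ± 0.29 (SE, limma adjusted p = 9.35e-06). The glucocorticoid receptor NR3C1 changed by -0.88 and PPARA by -1.16, and NR4A2, an orphan receptor of the immediate early kind, rose by 1.13, or 0.89 (limma adjusted p = 0.14) with the actin covariate. The change of THRB was -1.92 over the mean of the gene's probe sets.

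Among early regulators of adipogenesis 6 of 15 fell and 2 rose; 3 rose and 4 fell with the actin covariate and 3 rose and 2 fell with poly-A centring. KLF15, a glucocorticoid-induced activator of fat cell genes, changed by -1.79 ± 0.23 (SE, limma adjusted p = 0.000112) and STAT5A by -1.33. GATA3, which holds preadipocytes back from differentiation, lay at 6.22, 6.25 and 6.16 in MA 1 to 3 and 8.28, 9.16 and 8.66 in DFAT 1 to 3, a rise of 2.49 ± 0.21 (SE, limma adjusted p = 4.37e-06), and the Notch target HES1 rose by 1.24. CEBPB (-0.89) and CEBPD (0.48), which start the programme, did not pass. KLF9 (-1.38) lost its call with the actin covariate (-1.78), with poly-A centring (-0.75) and without MA 2, MA 3, DFAT 1 or DFAT 2 (-1.37 to -1.17). The changes of GATA3 and KLF9 were 1.59 and -0.90 over the mean of each gene's probe sets.

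Of 8 clock genes 4 fell and 1 rose; 0 rose and 2 fell with the actin covariate and 1 rose and 1 fell with poly-A centring. CRY2, a repressor of the clock, lay at 8.62, 8.88 and 9.06 in MA 1 to 3 and 5.74, 6.52 and 6.53 in DFAT 1 to 3, a change of -2.59 ± 0.26 (SE, limma adjusted p = 1.92e-05), and PER1 changed by -1.31. The core activator ARNTL (0.03) and DBP (-0.42) did not pass. RORA (-1.68) and NFIL3 (-1.33) did not keep the call with poly-A centring (-1.05 and -0.70), and CSNK1D (0.78), the member that rose, was 0.33 (limma adjusted p = 0.604) with the actin covariate and did not pass without MA 1, MA 2, DFAT 2 or DFAT 3 (0.64 to 0.78), which left no rise in this list. The time of day of sampling is not given. The change of CSNK1D was 0.41 (limma adjusted p = 0.105) over the mean of the gene's probe sets.

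Among regulators of chromatin and DNA methylation more members rose than fell. Of 29 measured, 13 rose and 1 fell (median 0.55); 7 rose and 1 fell with the actin covariate and 21 rose and 0 fell with poly-A centring. EZH2, the methyltransferase of the Polycomb repressive complex, lay at 5.05, 4.90 and 5.13 in MA 1 to 3 and 8.71, 7.18 and 7.30 in DFAT 1 to 3, a rise of 2.70 ± 0.33 (SE, limma adjusted p = 8.36e-05). DNMT1, which copies DNA methylation after replication, lay at 6.90, 7.48 and 7.44 in MA 1 to 3 and 10.06, 8.97 and 9.17 in DFAT 1 to 3, a rise of 2.13 ± 0.27 (SE, limma adjusted p = 0.000107). DFAT 1 was the highest of its group for both. The histone chaperone ASF1B rose by 2.03, and DNMT3A (0.06) and DNMT3B (0.25), which set new methylation, did not pass. The alternative motors of the SWI/SNF complex went opposite ways, SMARCA4 by 2.05 ± 0.15 (SE, limma adjusted p = 1.39e-06) and SMARCA2 by -0.998 ± 0.22 (SE, limma adjusted p = 0.00441), and SMARCA2 did not keep its call with the actin covariate (-0.57) or with poly-A centring (-0.37). The change of DNMT1 was 0.9998 over the mean of the gene's probe sets.

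Of 22 growth arrest genes 8 fell and 3 rose; 0 rose and 7 fell with the actin covariate and 7 rose and 5 fell with poly-A centring. SESN1, a sestrin that quiets mTORC1, lay at 11.26, 11.46 and 11.37 in MA 1 to 3 and 7.10, 7.66 and 7.87 in DFAT 1 to 3, a change of -3.82 ± 0.24 (SE, limma adjusted p = 5.63e-07). GADD45G changed by -2.70, TXNIP, which restrains glucose uptake, by -2.01, and CCNG2 by -1.52. The cyclin-dependent kinase inhibitors CDKN1A (0.54), CDKN1B (-0.13), CDKN2B (0.26), CDKN2C (0.15) and CDKN2D (0.20) did not pass. ZMAT3, a p53 target, rose by 2.09, or 1.28 (limma adjusted p = 0.117) with the actin covariate. In the apoptosis machinery 4 of 21 rose and 3 fell, the risen share near that over all named genes and the fallen share below it. With the actin covariate 2 rose and 4 fell, and with poly-A centring 8 rose and 1 fell. BID changed by -1.98 and FADD by 1.11.

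Parts of the secretory route rose. In translocation into the endoplasmic reticulum and transport to the Golgi 18 of 46 members rose and 5 fell (median 0.32); 7 rose and 4 fell with the actin covariate and 29 rose and 0 fell with poly-A centring. SEC24D, a cargo adaptor of COPII vesicles, lay at 7.27, 7.67 and 7.61 in MA 1 to 3 and 10.21, 10.30 and 9.92 in DFAT 1 to 3, a rise of 2.63 ± 0.22 (SE, limma adjusted p = 4.07e-06). KDELR3, which returns chaperones to the endoplasmic reticulum, lay at 9.85, 9.69 and 9.68 in MA 1 to 3 and 12.27, 11.26 and 11.57 in DFAT 1 to 3, and the cargo receptor TMED3 rose by 1.89 ± 0.19 (SE, limma adjusted p = 1.56e-05). The groups did not overlap in these. SEC23A, a partner of SEC24D in the COPII coat, rose by 1.55, and the translocon genes SEC62 and SEC63 changed by -0.80 and -0.84. LMAN2, a lectin of the early route, changed by -1.27, or -0.63 (limma adjusted p = 0.131) with poly-A centring. The change of LMAN2 was -0.71 over the mean of the gene's probe sets.

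Among chaperones of the endoplasmic reticulum 6 of 16 rose and 1 fell; 3 rose and 2 fell with the actin covariate and 12 rose and 0 fell with poly-A centring. PDIA3, an oxidoreductase that also loads MHC class I, lay at 10.80, 10.61 and 10.78 in MA 1 to 3 and 12.50, 12.25 and 12.25 in DFAT 1 to 3, a rise of 1.60 ± 0.20 (SE, limma adjusted p = 0.000101). HSPA5 (0.16), HSP90B1 (0.46) and XBP1 (0.39), the usual reporters of unfolded protein stress, did not pass. HYOU1 (1.27) and MANF (1.12) were 0.67 (limma adjusted p = 0.19) and 0.68 (limma adjusted p = 0.319) with the actin covariate. The single fall was that of calnexin CANX (-0.60), which was 0.03 with poly-A centring and did not pass without DFAT 2 (-0.55).

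Ribosome assembly and splicing rose in part and by smaller amounts. In ribosome biogenesis 10 of 30 rose and 2 fell (median 0.47); 3 rose and 2 fell with the actin covariate and 18 rose and 0 fell with poly-A centring. Fibrillarin FBL, which methylates ribosomal RNA, lay at 9.11, 8.98 and 9.17 in MA 1 to 3 and 11.27, 10.06 and 10.63 in DFAT 1 to 3, a rise of 1.57 ± 0.27 (SE, limma adjusted p = 0.000836). MYC, a driver of ribosome production, changed by -0.61. Of 48 splicing genes 15 rose and 1 fell (median 0.44); 6 rose and 0 fell with the actin covariate and 32 rose and 0 fell with poly-A centring. The core snRNP proteins SNRPD1, SNRPD3 and SNRPG rose by 1.77, 1.42 and 1.27, the first at 1.27 (limma adjusted p = 0.104) with the actin covariate. SRSF4 (-0.78) was the splicing factor that fell, at -0.14 (limma adjusted p = 0.718) with poly-A centring. Proteasome subunits had 8 of 34 members rise and 4 fall, the risen share near that over all named genes and the fallen share below it; 2 rose and 4 fell with the actin covariate and 15 rose and 0 fell with poly-A centring. The proteasome activator PSME2 rose by 1.15 ± 0.14 (SE, limma adjusted p = 8.14e-05), while the base ATPases PSMC5 and PSMC2 changed by -1.16 and -1.06, the former at -0.53 (limma adjusted p = 0.186) with poly-A centring. PSMB3 (1.28) did not pass without MA 1, MA 2 or DFAT 3 (0.85 to 1.30). Of the proteasome genes 4 rose without MA 1 or MA 2, 5 rose without DFAT 1 and 8 fell without DFAT 1. The change of SNRPG was 0.72 over the mean of the gene's probe sets.

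Among genes of TGF-beta and BMP signalling, some ligands, receptors and targets rose. Of 26 measured genes 12 rose and none fell, with 2 lower at an unadjusted limma p under 0.05. The median was 0.69; 7 rose and 2 fell with the actin covariate and 17 rose and 0 fell with poly-A centring. Of these genes 1 fell without DFAT 2. Among the ligands, TGFB3 lay at 5.78, 5.86 and 6.18 in MA 1 to 3 and 8.96, 10.21 and 9.25 in DFAT 1 to 3, a rise of 3.53 ± 0.29 (SE, limma adjusted p = 4.28e-06), TGFB2 rose by 1.59, and TGFB1 by 2.15, or 1.16 (limma adjusted p = 0.187) with the actin covariate. Among the receptors, BMPR1B, a type I receptor for bone morphogenetic proteins, lay at 3.98, 3.53 and 3.65 in MA 1 to 3 and 7.73, 7.73 and 7.43 in DFAT 1 to 3, a rise of 3.91 ± 0.18 (SE, limma adjusted p = 5.77e-08). ACVR1 rose by 1.25 and ACVR2A by 1.005, while TGFBR1 (-0.45) did not pass. Among the targets, ID3, an inhibitor of helix-loop-helix factors, lay at 10.86, 11.57 and 11.67 in MA 1 to 3 and 13.69, 13.58 and 13.38 in DFAT 1 to 3, and ID1 rose by 2.05. The MA and DFAT arrays were apart for TGFB3, BMPR1B and ID3. The transducers SMAD1 (0.69), SMAD3 (-0.62) and SMAD4 (0.17) did not pass. The changes of TGFB1 and BMPR1B were 1.42 and 2.10 over the mean of each gene's probe sets.

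Growth factors and receptor tyrosine kinases went both ways, with 10 of 31 risen and 8 fallen; 8 rose and 5 fell with the actin covariate and 12 rose and 3 fell with poly-A centring. The heparin-binding factors midkine MDK and pleiotrophin PTN rose by 4.71 ± 0.37 (SE, limma adjusted p = 2.96e-06) and 3.72 ± 0.52 (SE, limma adjusted p = 0.000205), and MDK lay at 6.50, 5.93 and 6.44 in MA 1 to 3 and 11.80, 9.9999 and 11.20 in DFAT 1 to 3. PTN was 2.05 with the actin covariate. AREG, a ligand of the EGF receptor, lay at 3.48, 3.24 and 3.48 in MA 1 to 3 and 8.42, 8.22 and 6.09 in DFAT 1 to 3, a rise of 4.18 ± 0.52 (SE, limma adjusted p = 8.57e-05), whereas the receptor EGFR changed by -1.13 and the ligands HBEGF and EGF by -0.62 and -0.55. BDNF rose by 2.78, FGFR2 by 2.73, FGF7 by 1.87 and LIF by 2.16. On the other side, ANGPTL4, an inhibitor of lipoprotein lipase, changed by -2.55 ± 0.28 (SE, limma adjusted p = 3.80e-05), VEGFB by -2.09, the stem cell factor receptor KIT by -1.40 and the ERK phosphatase DUSP6 by -2.31, while VEGFA did not pass (0.02). In this list 5 fell without MA 3 or DFAT 3. The change of PTN was 1.81 over the mean of the gene's probe sets.

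The IGF axis had 5 of 12 members rise and 2 fall; 2 rose and 2 fell with the actin covariate and 5 rose and 1 fell with poly-A centring. IGFBP2, which binds IGFs outside the cell, lay at 5.85, 6.29 and 4.84 in MA 1 to 3 and 7.54, 12.42 and 12.74 in DFAT 1 to 3: DFAT 1 was more than 4 units below the other DFAT arrays. Its change was 5.24 ± 1.07 (SE, limma adjusted p = 0.0029), or 5.43 (limma adjusted p = 0.0537) with the actin covariate. IGFBP6, which prefers IGF2, rose by 1.95 ± 0.26 (SE, limma adjusted p = 0.000154), IGF1 by 1.24 and the receptor IGF1R by 1.71, and IGF2 did not pass (0.00). IGFBP5 rose by 3.15, or 2.16 (limma adjusted p = 0.13) with the actin covariate. In the axis 1 fell without MA 2, MA 3, DFAT 2 or DFAT 3.

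Single members of the Notch, Wnt and TEAD lists rose. Of 11 Notch genes 4 rose and none fell, with 1 lower at an unadjusted limma p under 0.05, and without MA 3, 1 fell. Among them 3 rose and 1 fell with the actin covariate, and 6 rose and 0 fell with poly-A centring. Beside HEY2 these were LFNG, a glycosyltransferase that tunes Notch receptors, at 5.67, 5.69 and 6.0003 in MA 1 to 3 and 7.74, 7.22 and 8.78 in DFAT 1 to 3 and a rise of 2.13 ± 0.36 (SE, limma adjusted p = 0.000793), HES1, and the protease ADAM17 (1.18, or 0.56 (limma adjusted p = 0.187) with the actin covariate). The ligand JAG1 (-0.14) and the effector RBPJ (0.26) did not pass. Of 14 Wnt genes 4 rose and 3 fell; 3 rose and 2 fell with the actin covariate and 4 rose and 1 fell with poly-A centring. The receptors FZD4 and FZD2 went opposite ways, FZD4 by -2.51 ± 0.36 (SE, limma adjusted p = 0.00027) and FZD2 by 1.41 ± 0.21 (SE, limma adjusted p = 0.000373), and the transcription factors LEF1 and TCF7L1 by 1.10 and -1.36. TCF7L1 was -0.99 (limma adjusted p = 0.0623) with the actin covariate and -0.73 (limma adjusted p = 0.111) with poly-A centring. SFRP1, a secreted Wnt inhibitor, lay at 10.71, 11.06 and 11.26 in MA 1 to 3 and 6.40, 10.90 and 10.40 in DFAT 1 to 3 and did not pass, with DFAT 1 far below the other DFAT arrays. Without MA 1, 2 Wnt genes rose. The changes of LFNG and ADAM17 were 1.37 and 0.40 (limma adjusted p = 0.203) over the mean of each gene's probe sets.

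TEAD4, one of the DNA-binding partners of YAP, lay at 6.39, 5.78 and 5.47 in MA 1 to 3 and 8.33, 8.71 and 8.60 in DFAT 1 to 3, a rise of 2.67 ± 0.23 (SE, limma adjusted p = 6.03e-06). The list of YAP and TEAD targets counts TEAD4 itself among its 12 measured members. Of these 12, 4 rose and none fell, with 2 lower at an unadjusted limma p under 0.05, and without DFAT 3, 1 fell. In this list 3 rose and 1 fell with the actin covariate, and 9 rose and 0 fell with poly-A centring. CYR61 (0.33), a target much used as a reporter, did not pass. ANKRD1 (1.68), another, was 1.42 (limma adjusted p = 0.147) with the actin covariate. The change of ANKRD1 was 0.93 over the mean of the gene's probe sets.

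Mesenchymal transcription factors had 5 of 17 members rise and 4 fall, so that 52.9% passed in either direction, against 41.2% over all named genes. With the actin covariate 5 rose and 3 fell, and with poly-A centring 9 rose and 1 fell. PRRX1, a homeobox factor of limb and wound mesenchyme, lay at 5.34, 5.42 and 5.64 in MA 1 to 3 and 9.61, 10.69 and 11.09 in DFAT 1 to 3, a rise of 4.997 ± 0.38 (SE, limma adjusted p = 2.00e-06). TCF21, a factor of visceral and cardiac fibroblasts, lay at 3.65, 3.55 and 4.12 in MA 1 to 3 and 7.54, 6.88 and 7.05 in DFAT 1 to 3, a rise of 3.38 ± 0.27 (SE, limma adjusted p = 3.36e-06). SNAI1, a repressor of epithelial cadherin, rose by 3.02 ± 0.26 (SE, limma adjusted p = 6.30e-06). The MA and DFAT arrays did not overlap in any of these. HOXD8 changed by -2.02 ± 0.20 (SE, limma adjusted p = 1.72e-05) and MEIS2 by -1.11. In this list 2 fell without MA 2 or MA 3. The guidance receptor PLXNA2, a plexin for semaphorins, rose by 2.86 ± 0.18 (SE, limma adjusted p = 6.29e-07). Of the 8 guidance genes 2 rose, a share near that over all named genes. None fell, with 0 lower at an unadjusted limma p under 0.05. With the actin covariate 1 rose and 0 fell, and with poly-A centring 5 rose and 0 fell. The other was EFNB2, at 1.51, or 1.10 (limma adjusted p = 0.253) with the actin covariate.

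The rest of the cytoskeleton and the ion and water transport of the membrane also changed. Of 28 microtubule genes 11 rose and 1 fell (median 0.47); 7 rose and 2 fell with the actin covariate and 19 rose and 0 fell with poly-A centring. CKAP4, which ties the endoplasmic reticulum to microtubules, lay at 6.70, 6.77 and 7.07 in MA 1 to 3 and 11.94, 11.99 and 11.89 in DFAT 1 to 3, a rise of 5.09 ± 0.16 (SE, limma adjusted p = 4.46e-09). MAP1A, a microtubule-associated protein, rose by 3.31 ± 0.44 (SE, limma adjusted p = 0.00014), and stathmin STMN1, which breaks microtubules down, by 2.39 ± 0.28 (SE, limma adjusted p = 5.54e-05). The tubulins TUBA1B and TUBB rose by 2.28 and 2.10, with TUBA1A at 0.41 and not past the test. Tubulin genes are near-identical copies, so their probe sets may read each other. The change of MAP1A was 2.03 over the mean of the gene's probe sets.

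In intermediate filaments and the nuclear envelope 4 of 13 rose and 1 fell; 2 rose and 1 fell with the actin covariate and 6 rose and 1 fell with poly-A centring. Lamin LMNB1, which dividing cells carry, lay at 3.46, 3.43 and 2.87 in MA 1 to 3 and 8.28, 7.35 and 6.76 in DFAT 1 to 3, a rise of 4.21 ± 0.36 (SE, limma adjusted p = 5.64e-06), and lamin LMNA rose by 1.51, or 0.80 (limma adjusted p = 0.0967) with the actin covariate. Vimentin VIM, the filament of mesenchymal cells, lay at 14.31, 14.35 and 14.14 in MA 1 to 3 and 14.32, 14.44 and 14.43 in DFAT 1 to 3 and did not pass (0.13 ± 0.15 (SE, limma adjusted p = 0.576)). SYNE2, a tether of the nucleus, changed by -1.54. Annexins and S100 proteins had 6 of 14 members fall and 2 rise; 2 rose and 4 fell with the actin covariate and 2 rose and 2 fell with poly-A centring. S100A1, a calcium sensor, lay at 11.94, 12.31 and 12.35 in MA 1 to 3 and 6.13, 7.87 and 8.88 in DFAT 1 to 3, a change of -4.57 ± 0.58 (SE, limma adjusted p = 0.0001), and S100A4, known from motile fibroblasts, lay at 6.05, 6.41 and 6.86 in MA 1 to 3 and 10.49, 10.75 and 8.93 in DFAT 1 to 3, a rise of 3.62 ± 0.51 (SE, limma adjusted p = 0.000223) that was 2.31 with the actin covariate. The changes of LMNA and SYNE2 were 0.88 and -0.80 over the mean of each gene's probe sets.

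Aquaporins, pumps and channels had 8 of 23 members rise and 3 fall; 7 rose and 3 fell with the actin covariate and 9 rose and 3 fell with poly-A centring. AQP3 and AQP11, channels for water and glycerol, changed by -4.94 ± 0.27 (SE, limma adjusted p = 2.06e-07) and -3.79 ± 0.23 (SE, limma adjusted p = 4.43e-07). AQP3 lay at 11.84, 11.74 and 11.90 in MA 1 to 3 and 6.46, 6.66 and 7.53 in DFAT 1 to 3, with every MA array above every DFAT array. The beta subunit ATP1B1 of the sodium pump rose by 4.08 ± 0.32 (SE, limma adjusted p = 3.07e-06), and the pump regulators FXYD5 and FXYD6 by 3.38 and 3.03.

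Interferon-induced genes went both ways, most genes of MHC class I presentation rose, and most markers of macrophages fell. Of 25 interferon genes 9 rose, 4 fell and 12 did not pass (median 0.87); 7 rose and 4 fell with the actin covariate and 15 rose and 1 fell with poly-A centring. ISG15, a ubiquitin-like protein, lay at 7.10, 7.69 and 7.81 in MA 1 to 3 and 10.03, 11.90 and 10.56 in DFAT 1 to 3, a rise of 3.29 ± 0.72 (SE, limma adjusted p = 0.00441). MX1, an antiviral GTPase, lay at 8.01, 8.70 and 8.91 in MA 1 to 3 and 10.50, 12.08 and 11.14 in DFAT 1 to 3, a rise of 2.70 ± 0.54 (SE, limma adjusted p = 0.00255). XAF1, an interferon-induced antagonist of apoptosis inhibitors, rose by 2.05 ± 0.32 (SE, limma adjusted p = 0.000432). The groups did not overlap, and DFAT 2 was the highest of the DFAT arrays in all of these, as it was in 20 of the 25 interferon genes. RSAD2, an antiviral enzyme, lay at 5.24, 5.41 and 5.31 in MA 1 to 3 and 4.44, 10.32 and 7.92 in DFAT 1 to 3 and did not pass (2.24 ± 1.06 (SE, limma adjusted p = 0.138)), with DFAT 1 below every MA array. The transcription factor IRF1 lay at 10.91, 11.91 and 11.92 in MA 1 to 3 and 8.11, 8.95 and 8.80 in DFAT 1 to 3, a change of -2.96 ± 0.39 (SE, limma adjusted p = 0.000135), and the receptor chain IFNGR1 changed by -1.22. Without DFAT 2, 8 interferon genes rose and 5 fell. Of these genes 2 fell without MA 3 or DFAT 1.

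Of 12 genes of MHC class I presentation 8 rose and 1 fell, with a median of 1.57; 7 rose and 1 fell with the actin covariate and 8 rose and 0 fell with poly-A centring. The peptide transporter TAP1 lay at 7.35, 7.77 and 8.03 in MA 1 to 3 and 8.86, 9.86 and 9.67 in DFAT 1 to 3, a rise of 1.75 ± 0.27 (SE, limma adjusted p = 0.000463). The immunoproteasome subunits PSMB8 and PSMB10 rose by 1.66 and 1.57, and the loading factor TAPBP by 1.09. SLA-6 and SLA-7 rose by 2.70 and 1.75, while SLA-2 (-0.19) and SLA-3 (-0.12) did not pass. The SLA genes are near-identical copies that a probe set may not tell apart, so their values are uncertain, and the probe sets of B2M, the light chain, went in opposite directions. The changes of TAP1 and SLA-6 were 0.53 and 1.16 over the mean of each gene's probe sets.

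Beside these genes the macrophage and dendritic cell markers had 13 of 19 fall and 1 rise. The MHC class II chain SLA-DRA lay at 8.74, 7.87 and 8.06 in MA 1 to 3 and 4.56, 4.56 and 4.39 in DFAT 1 to 3, and the myeloid regulator SPI1 at 5.93, 6.98 and 7.33 in MA 1 to 3 and 4.65, 4.65 and 4.98 in DFAT 1 to 3. CD86, a costimulator of antigen-presenting cells, was the exception and lay at 5.95, 6.04 and 5.97 in MA 1 to 3 and 9.29, 9.78 and 9.01 in DFAT 1 to 3. In DFAT 13 of the 19 markers had a mean below 5 on the log2 scale, against 2 in MA. Their part in the changes of immune genes was not tested.

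Complement and coagulation regulators had 9 of 31 members fall and 6 rise; 4 rose and 6 fell with the actin covariate and 11 rose and 4 fell with poly-A centring. F5, coagulation factor V, changed by -3.80 ± 0.56 (SE, limma adjusted p = 0.000317), and CD59, which guards cells against complement, by -2.40 ± 0.28 (SE, limma adjusted p = 5.97e-05). PLAT, tissue plasminogen activator, lay at 5.06, 5.24 and 5.64 in MA 1 to 3 and 9.14, 8.53 and 8.73 in DFAT 1 to 3, a rise of 3.49 ± 0.28 (SE, limma adjusted p = 3.05e-06), and SERPINF1, an inhibitor of vessel growth, rose by 2.36 ± 0.43 (SE, limma adjusted p = 0.0014). The complement guards CD55 and CD46 rose by 1.66 and 1.47, opposite to CD59. Without DFAT 1, 10 of the members rose.

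In NF-kB and TNF signalling 5 of 18 rose and 5 fell, so that 55.6% passed in either direction, against 41.2% over all named genes. With the actin covariate 4 rose and 5 fell, and with poly-A centring 6 rose and 3 fell. The lipopolysaccharide receptor TLR4 changed by -2.57 ± 0.27 (SE, limma adjusted p = 2.44e-05) and the inhibitor NFKBIA by -1.99. ICAM1, an adhesion molecule for leukocytes, lay at 7.003, 6.60 and 6.64 in MA 1 to 3 and 9.63, 11.18 and 10.85 in DFAT 1 to 3, a rise of 3.81 ± 0.39 (SE, limma adjusted p = 1.95e-05), and TNFRSF12A, the receptor of TWEAK, rose by 2.54. Without DFAT 1, 3 of these genes fell.

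**Figure D5:**
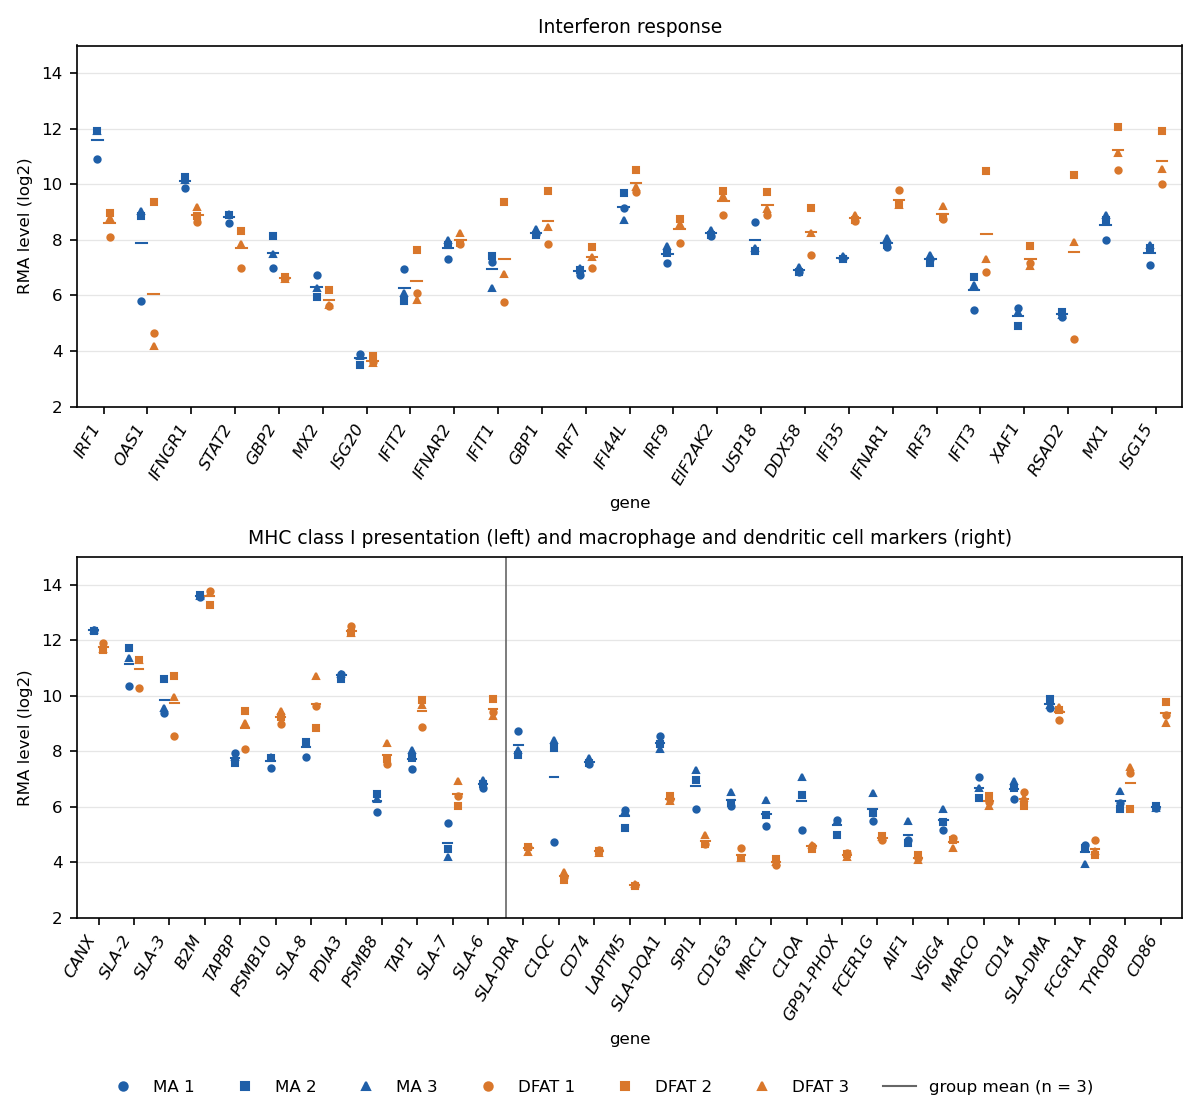
RMA level on the log2 scale (y axis) of interferon response genes (upper panel) and of MHC class I presentation genes and macrophage and dendritic cell markers (lower panel, left and right of the line), 1 gene per place on the x axis, in MA 1 to 3 (blue) and DFAT 1 to 3 (orange), with group means as lines. DFAT 2 (square) is the highest DFAT array in 20 of the 25 interferon genes, and the DFAT arrays lie below the MA arrays for most macrophage markers.

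Spread within the groups differed by gene. Over the 6765 named genes the median range across 3 arrays was 0.37 in MA and 0.48 in DFAT, and a range of at least 2 units was reached by 36 genes (0.532%) in MA and 144 (2.13%) in DFAT. In the 10 genes with a DFAT range of at least 4 units, DFAT 2 was the highest array in 6 and DFAT 3 in 4. Beside RSAD2, IGFBP2 and SFRP1 they included the matricellular protein POSTN, at 3.67, 5.79 and 7.99 in DFAT 1 to 3, the thrombin receptor THBD, at 4.48, 5.61 and 8.69, and the adhesion molecule VCAM1, at 6.40, 7.60 and 10.49. For each of these DFAT 1 was the lowest array. OAS1 (4.66, 9.35 and 4.17) and EIF1AY (3.09, 8.20 and 3.065), also among the 10, were lowest in DFAT 3.

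Probe sets of 1 gene sometimes disagreed. In 24 genes, separate probe sets passed the test in opposite directions. For ATP2A2, the calcium pump of the endoplasmic reticulum, the changes of its called probe sets ran from -2.74 to 2.86, so no direction is given for that gene.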

How the data were processed

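RNA of 12 arrays (3 each of MA, DFAT, GC and DFOG) was read on the Affymetrix porcine genome array, from total RNA extracted with Trizol, purified on columns and labelled with biotin, per the labels' protocols. The deposited table holds log2 expression values from the authors' RMA (robust multi-array average), which the submitters' processing notes name. RMA sets all arrays to one distribution, so every change is measured against the rest of the RNA, and the table holds no detection calls, so low levels cannot be told from background and their changes are understated. The version, the settings and the build are, in the sources used here, not given. The number of arrays limits the precision.

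Of 24123 probe sets, 124 Affymetrix controls were left out. Names came from the platform annotation, which can be old: 10069 probe sets had 1 symbol, 198 several and 13732 none here, in all 6765 named genes. Where a gene had several probe sets (2261 genes), that with the highest mean level stood for it. One mean for each of the 4 groups was fitted with limma 3.58.1 in R 4.3.3 over 11 samples (7 residual degrees of freedom). DFOG replicates 2 and 3 were averaged, since the SD of their differences was 0.07 against 0.31 to 0.62 in the other pairs of arrays. Differences were tested two-sided with limma's moderated statistic and adjusted by the Benjamini-Hochberg method over 23999 probe sets at 0.05. The fit was tested on simulated data. Marker levels are log2 of the summed linear values of a list. Figures were drawn in Python 3.11.15 with matplotlib 3.10.9.

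The members, the 45 gene lists, 10 marker lists and 5 classic lists (used only to leave genes out) were chosen with earlier results of these data known, so lists are described by counts and medians without a test. The leading genes are the 15 largest rises and 15 largest falls among genes with 1 symbol that is no placeholder, outside the classic lists, past the test and without overlap of MA and DFAT. From each list up to 4 genes with the largest change were picked by the same criteria, at most 3 in 1 direction where both occur. Some of these picked genes are not described above, and other members are given as examples with their values. Many listed genes were not measured under a name here, and counts cover measured genes only. For example, 8 of 41 guidance genes and 14 of 49 Wnt genes were measured. Genes of the paragraph on spread, the arrays named there and the genes of MA 1 were chosen after their values were seen. Alternatives covered the arrays fitted, a replicate block, leaving out each array, covariates for RNA length and for EIF1AY, centring on the poly-A controls, quantile normalization, a level filter, array weights, a variance trend, a 2-fold minimum and the mean of a gene's probe sets. No sequences are printed, and no genome coordinates are given.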

Additional observations from a re-analysis of the deposited data

Results flagged for a closer look

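The change of 25 of the 30 leading genes in fat cells differed from the change of the same gene in granulosa cells, by limma's test of the difference between DFAT minus MA and DFOG minus GC, adjusted over all probe sets. The leading genes were picked for a large fat cell change, which is part of that difference, so the choice favoured a pass. The values in brackets are that difference on the log2 scale, the fat cell change minus the granulosa cell change.

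Among the rises, the difference was above 0 for TMEM158 (6.15), RAI14 (4.59), TMEM26 (1.07), SERPINE2 (9.03), HEY2 (6.81), DKK3 (3.72), CD93 (4.66), TIMP1 (2.60), PCLAF (6.40) and PAPSS2 (4.59). SERPINE2 had the largest of these differences, and its level was 13.89 in GC and 11.43 in DFOG. For HEY2 and PCLAF the GC means were 10.93 and 10.73 and the DFAT means 10.41 and 9.20.

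Among the falls, the difference was below 0 for CA3 (-8.64), PON3 (-8.61), CDO1 (-3.08), SGK2 (-7.39), ENPP2 (-4.62), TSPAN13 (-4.27), ITIH5 (-5.59), PDE6C (-6.23), SLC22A3 (-6.17), PLA2G7 (-2.58), OXCT1 (-4.05), FBP1 (-4.85), FBP2 (-5.05), AGT (-5.53) and GPX3 (-4.74). In CDO1 and PLA2G7 the GC means lay within about 1 unit of the MA means, 11.03 against 12.05 and 11.14 against 11.19. GPX3 was at 11.91 in GC and 11.32 in DFOG, and at 7.76 in DFAT.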

How the results depend on the processing

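The count of probe sets higher in DFAT than in MA was 2296 with the actin covariate, 6884 with poly-A centring and 2424 when calls also had to reach 2-fold, against 3765 as reported. The count of lower probe sets was 1340 with poly-A centring and 2357 at 2-fold, against 3941. Under the other alternatives tried both counts stayed within 1.5 times of those reported. Leaving out 1 array of MA or DFAT gave 3065 to 3668 higher and 3256 to 3758 lower. Of the 7706 calls, 4301 were kept with the actin covariate, 7145 with the second actin control as a covariate and 6668 with the EIF1AY level as a covariate. The last 2 alternatives were chosen after seeing the data, and the 2 actin controls moved in opposite directions between the groups. The mean of the GAPDH control was lower in DFAT, as was that of the first actin control.

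The replicate numbers did not meet the rule for pairing: the deviations of same-numbered MA and DFAT arrays correlated at 0.0999, 0.17 and 0.13, with 2 of 3 pairs over 0.1, although each of the 6 arrays correlated best with its own number, a hint from the data and not the design. With a replicate block over the MA and DFAT arrays 3592 probe sets were higher and 3583 lower, against 3538 and 3588 from the same arrays without the block. Of the leading and list genes picked, RHOQ did not pass in either of these fits, and PHKG2 lost its call only under the block (0.64, limma adjusted p = 0.0593). CANX changed sign with poly-A centring, at 0.031 against -0.60. With the actin covariate 30 of the 203 distinct genes picked lost their call, and KLF9, PPP1R3B and RHOQ did with the EIF1AY level as a covariate. Under the actin covariate KLF9 (-1.78 against -1.38) and IGFBP2 (5.43 against 5.24) lost it with larger changes. Others shrank, such as SHC1 (0.10 against 1.27). The 203 include the picked genes that are not described above. Of the 45 gene lists, the risen or the fallen count moved from the reported one by more than 1.5 times, or from 0, in 36 with poly-A centring, 27 with the actin covariate, 25 at 2-fold, 13 above the median level, 10 over the mean of a gene's probe sets, 9 with array weights, 9 under the replicate block, 7 with the MA and DFAT arrays alone, 7 with the EIF1AY level, 4 with the second actin control, 4 after quantile normalization, 3 with all 12 arrays and 1 with a variance trend. Leaving out 1 array moved 6 to 8 of them. The cause was not tested. Genes near the low end of the scale are limited by background, which these values do not report.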

Other observations

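Some genes stood apart on single arrays and belong to none of the comparisons. CYP3A46, a cytochrome P450 enzyme, lay at 11.66, 5.60 and 7.003 in MA 1 to 3, and ATP6V0A4, a proton pump subunit of acid-secreting epithelia, at 9.48, 4.001 and 4.71. Both were high in MA 1, as were SAL1 and KRT18, while C1QC, a macrophage complement gene, lay at 4.74, 8.12 and 8.40 and was low in MA 1. In DFAT all 3 arrays held ATP6V0A4 between 3.85 and 3.90.

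MYL1, a myosin light chain of fast skeletal muscle, lay at 4.33, 3.87 and 4.24 in MA 1 to 3 and at 10.45, 7.15 and 7.86 in DFAT 1 to 3, highest in DFAT 1. The muscle genes CKM and MYH2 lay at 4.23, 4.45 and 4.06 and at 3.55, 3.21 and 3.13 in DFAT 1 to 3. OAS1, an antiviral enzyme, lay at 5.79, 8.88 and 9.04 in MA 1 to 3 and 4.66, 9.35 and 4.17 in DFAT 1 to 3, and its high values were those of MA 2, MA 3 and DFAT 2, the arrays also high in EIF1AY. PRELP, a matrix leucine-rich protein, lay at 7.09, 11.25 and 8.18 in DFAT 1 to 3 and TMEM100, a membrane protein, at 4.07, 5.67 and 7.79. These genes were chosen after their values were seen.

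Several of the largest changes had no gene symbol here. One probe set rose from 4.27 ± 0.81 to 13.76 ± 0.35 and another from 5.31 ± 0.74 to 13.48 ± 0.49 (SD, n = 3 each). One fell from 13.73 ± 0.13 to 6.32 ± 0.39 and another from 13.17 ± 0.36 to 5.96 ± 0.90 (SD, n = 3 each).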
